A study of Mus musculus with 4 samples.

Results

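The nuclear and mitochondrial genes of the respiratory chain were followed in single cells of mouse brain. Members were taken by symbol from the gene list of the count tables. The nuclear members begin with Ndufa, Ndufb, Ndufc, Ndufs or Ndufv (complex I), Uqcr (complex III), Cox4 to Cox8 (complex IV) or Atp5 (complex V), and the mitochondrial members begin with mt-Nd, mt-Cytb, mt-Co or mt-Atp. Assembly factors (Ndufaf), Ndufa4l2 and symbols with -ps were left out. This gave 98 of 55487 genes, of which 85 are nuclear (40 in complex I, 8 in complex III, 19 in complex IV and 18 in complex V) and 13 are mitochondrial (7, 1, 3 and 2). The 85 nuclear genes carry 84 symbols, because Atp5o is listed as a pair of genes, of which one had no UMI in endothelial-like cells. Ndufs6b, Cox6c2, Ndufb4c and Ndufa11b fit the symbols but are annotated as processed pseudogenes.

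The respiratory chain sits in the inner mitochondrial membrane. Complexes I and III and the terminal oxidase, complex IV, pass electrons to oxygen and pump protons, and complex V, the ATP synthase, uses the proton gradient to make ATP. Most subunits are encoded in the nucleus and imported, while central membrane subunits of complexes I, III and IV and a membrane part of complex V are encoded by mitochondrial DNA, so both genomes have to supply parts of the same machines. Brain endothelial cells form the blood-brain barrier, whose transporters and pumps use ATP, and pericytes, smooth muscle cells, astrocytes and microglia sit at or near the same vessels. Several complex IV subunits exist as a widely used form and a tissue form.

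The study asked how loss of the transcription factor KLF4 in endothelial cells bears on the aging brain. It deposited 1 library for each of 4 groups, WT Cre and EC-K4KO mice that were either young or old. WT Cre mice (CdH5CRE in the labels) are littermates that carry CdH5-Cre, an endothelial Cre driver, and EC-K4KO mice (ECK4KO) carry the driver and floxed Klf4. The study's methods put the line on a C57BL/6J background and describe tamoxifen injection of young adult mice to trigger deletion, and its discussion has controls given the same treatment, while the labels list no drug treatment. The labels give age only as young or old, name both sexes, and describe a sort or marker purification of endothelial cells. The number of mice behind a library is not given in the sources used here.

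Each value is a count of UMIs (unique molecular identifiers, each marking 1 captured RNA molecule) summed over the cells of a class in 1 library and scaled to 1000000 UMIs of that sum (CPM). The libraries held 5324 to 8358 barcodes and 30655769 to 88812581 UMIs, and 20737 barcodes were kept as cells after filters on genes, UMIs, mitochondrial share and doublets. Pairs of libraries shared 6 to 10 barcodes. Clustering without the members among its genes gave 35 clusters, which were named from fixed markers and are called X-like. The labels call every library brain endothelial cells, yet endothelial-like cells were 9978 of the 20737. They numbered 2685 (young WT Cre), 3279 (young EC-K4KO), 2130 (old WT Cre) and 1884 (old EC-K4KO), the order used for every run of 4 values. The median of their UMIs per cell was 6363, 9850, 4696 and 3767 (lower in the old libraries). With 1 library per group there is no replicate check and no p-value. Ratios are log2 ratios of CPM with 0.5 UMIs added, intervals in brackets are 95% intervals that cover counting error only, and a gene is called past the fold at a log2 ratio of 0.5 or more in either direction.

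Klf4, the gene deleted in EC-K4KO mice, went against the labels. Endothelial-like cells held 1695, 3246, 2103 and 3295 CPM of Klf4, so both libraries labelled EC-K4KO held more than the WT Cre library of their age. The counts cover the whole gene symbol, and reads from outside the floxed part would not register a deletion, so they check nothing about it, and each library is named here by its label only. The summed level of the 8 endothelial markers was 18565, 18498, 17178 and 16256 CPM. Markers of other cells also moved between libraries: the neutrophil list summed to 7.14, 6.93, 10.5 and 178 CPM, the erythroid list to 370, 597, 351 and 837 CPM, and the choroid plexus list to 144, 110, 383 and 245 CPM. The neuron list summed to 165, 59.8, 311 and 104 CPM and the smooth muscle list to 57.8, 120, 36.3 and 31.2 CPM. The pericyte list stood at 75.4, 91.0, 77.8 and 26.1 CPM and the B cell list at 53.7, 7.56, 3.18 and 5.15 CPM. The immediate early and dissociation list summed to 14648, 18755, 25359 and 22982 CPM, higher in both old libraries. The part of these lists in any result on the chain was not tested.

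The chain took a different share of RNA in each cell class, and this spread was wider than that over the libraries within any class. In endothelial-like cells the nuclear members made up 1.89%, 1.86%, 1.80% and 1.76% of UMIs. Microglia-like cells, the resident macrophages of the brain, were lowest of the 5 classes with at least 100 cells per library, at 1.25%, 1.23%, 1.37% and 1.35%. Neutrophil-like cells, few in 3 libraries, held 1.26% in young EC-K4KO (35 cells), 0.980% in old WT Cre (25 cells) and 0.809% in old EC-K4KO (250 cells). Pericyte-like cells held 2.01%, 2.07%, 2.07% and 2.14%, so the 4 libraries of microglia-like, endothelial-like and pericyte-like cells did not overlap. Astrocyte-like cells (3.24%, 2.60%, 2.70% and 2.61%) and smooth muscle-like cells (3.08%, 3.04%, 3.04% and 2.85%) were higher, and their ranges overlapped. Choroid plexus-like cells, which secrete cerebrospinal fluid, were higher still at 5.58% in the old WT Cre library (170 cells) and 5.79% in old EC-K4KO (58 cells). The young libraries had 7 and 1 such cells, too few for a value.

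The mitochondrial members ran in nearly the same order. They made up 2.31%, 2.16%, 2.37% and 2.30% of UMIs in endothelial-like cells and 1.92%, 1.87%, 2.44% and 2.29% in microglia-like cells, so these classes overlapped. Pericyte-like cells held 2.85%, 3.0%, 2.87% and 2.63%, smooth muscle-like cells 4.65%, 4.88%, 4.03% and 4.23%, and astrocyte-like cells 4.24%, 4.59%, 4.21% and 4.69%. The limit of 10% mitochondrial UMIs per barcode caps these values, and it removed 22.5% to 28.2% of astrocyte-like and 3.31% to 6.50% of endothelial-like barcodes. The filter had removed 40.6% and 40.8% of choroid plexus-like barcodes in the old libraries, where the kept cells held 6.35% and 7.03%.

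**Figure D1:**
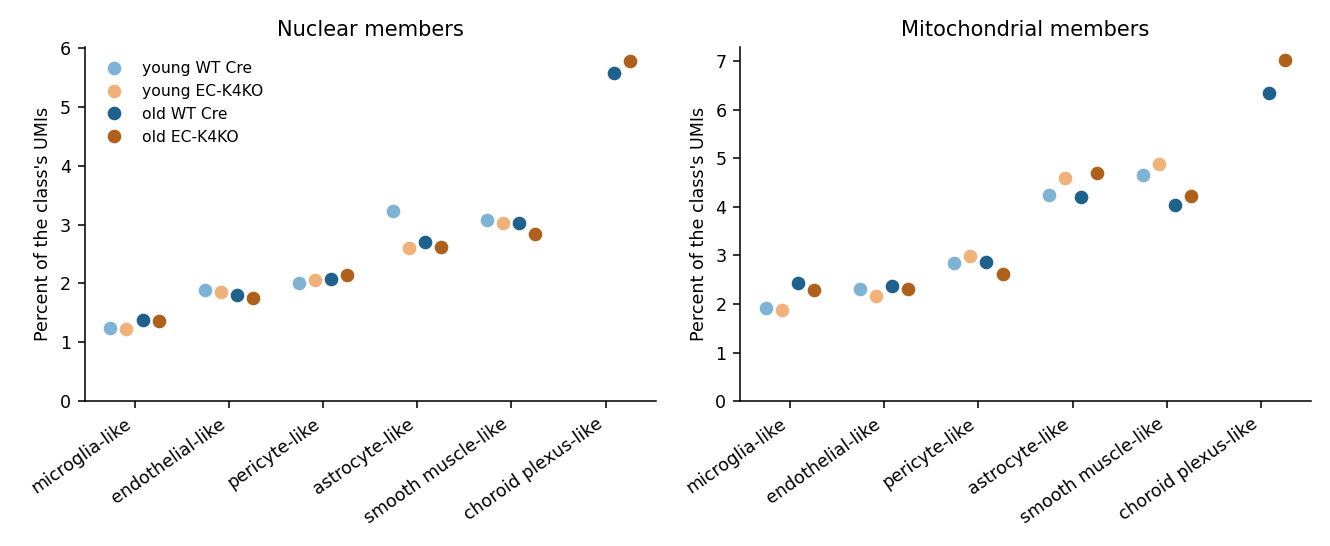
Percent of a class's UMIs that fell on nuclear (left) and mitochondrial (right) members, one point per library, by cell class. Of the classes plotted, microglia-like cells sit lowest for the nuclear members (1.23% to 1.37%) and choroid plexus-like cells, measured in the old libraries only, sit highest in both panels.

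Most single members were lowest in microglia-like cells. Of the nuclear members, 77 had a mean of at least 10 CPM in 1 or more of the 5 classes with at least 100 cells per library (endothelial-like, smooth muscle-like, microglia-like, pericyte-like and astrocyte-like). For all 77, the libraries of the highest class lay above those of the lowest, a spread described here without a test because the highest and lowest classes were picked by value. The same count over all genes is not given here, so this and the tallies below do not set the chain apart from other genes. The lowest class was microglia-like for 63 members, endothelial-like for 6, pericyte-like for 5, astrocyte-like for 2 and smooth muscle-like for 1. The highest was smooth muscle-like for 39, astrocyte-like for 32, pericyte-like for 3, microglia-like for 2 and endothelial-like for 1. With 0.5 CPM added to each class mean, the log2 ratio of the highest over the lowest class had a median of 1.47 over the 77 and was smallest for Ndufa6 (0.59). Cox4i2 lay farthest apart, at a mean of 746 CPM in pericyte-like and 0.928 CPM in microglia-like cells, the latter too few UMIs for a fold. Ndufa7, a complex I subunit, was the member highest in endothelial-like cells, at a mean of 614 CPM against 433, 207, 393 and 388 CPM in smooth muscle-like, microglia-like, pericyte-like and astrocyte-like cells.

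Smooth muscle-like cells led for the members of complex V, where 12 of 17 were highest in them, and astrocyte-like cells for 5 of the 8 of complex III. Atp5b, the catalytic beta subunit of ATP synthase, held 936 to 1020 CPM in smooth muscle-like and 198 to 224 CPM in microglia-like cells. Cox6c and Cox8a, small subunits of complex IV, held 1134 to 1401 and 1801 to 1929 CPM in smooth muscle-like cells, against 312 to 378 CPM in microglia-like and 538 to 562 CPM in endothelial-like cells, their lowest classes. Complex I was divided, with 17 of 37 members highest in each of the smooth muscle-like and astrocyte-like classes. Ndufa12 and Ndufs5 were highest in astrocyte-like cells (386 to 427 and 463 to 569 CPM) and lowest in microglia-like cells (76.3 to 80.1 and 106 to 115 CPM). Ndufc2, a membrane-arm subunit, broke the order, with 619 to 869 CPM in astrocyte-like and 176 to 222 CPM in smooth muscle-like cells, its lowest class. Uqcrh, at 846 to 950 CPM in smooth muscle-like cells, was lowest in pericyte-like cells (372 to 487 CPM).

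The mitochondrial members spread less between classes than the tissue forms did. mt-Cytb held means of 6447 CPM in endothelial-like, 13388 in smooth muscle-like, 5785 in microglia-like, 9601 in pericyte-like and 13741 in astrocyte-like cells. mt-Nd4, a proton-pumping subunit of complex I, was lowest in endothelial-like cells (2974 to 3595 CPM) and highest in astrocyte-like cells (7781 to 9487 CPM). mt-Nd1, also of complex I, differed less, with 3331, 5149, 3574, 3163 and 4659 CPM in the same order of classes. For 11 of the 13 the libraries of the highest class lay above those of the lowest, the exceptions being mt-Atp8 and mt-Nd3, whose spread over libraries is described further on. The count over all genes is not given for this either. In endothelial-like cells the nuclear share varied with cell depth. It was 1.79% to 2.0% in cells of 3000 to 8000 UMIs and 1.70% to 1.89% in cells of 8000 to 20000 UMIs and 1.71% to 1.80% in cells of 20000 UMIs or more, and in these 3 bands it was lower in the old library of each genotype. In cells of 1000 to 3000 UMIs this was not so, with 1.90% in young and 1.93% in old WT Cre and 1.83% in both EC-K4KO libraries. By cluster, the nuclear share was lower in the old library in 4 of 8 endothelial-like clusters in WT Cre and 6 of 8 in EC-K4KO.

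Pericyte-like cells differed from the other classes in the isoforms of complex IV. Cox4i2 (chromosome 2, 152754173 to 152765037, plus strand, GRCm38), the tissue form of the complex IV regulatory subunit COX4, stood at 812, 675, 733 and 766 CPM in pericyte-like cells. It was detected in 88.5%, 81.6%, 76.8% and 72.4% of them. Endothelial-like cells held 2.63, 2.24, 4.60 and 4.03 CPM, with a UMI in 1.75% to 2.07% of cells despite more UMIs per cell (medians of 3767 to 9850 against 2371 to 3720 in pericyte-like cells). Microglia-like cells, the comparison class for background, had a UMI in 0.167% to 0.615% of cells at medians of 4615 to 5608 UMIs. Cox4i1, the widely used form, was present in pericyte-like cells as well, at 596, 650, 791 and 822 CPM, close to the 636, 634, 745 and 727 CPM of endothelial-like cells.

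Ndufa4 (chromosome 6, 11900292 to 11907497, minus strand) showed the reverse. Its product was first assigned to complex I, with which its symbol counts it here, and is now placed with complex IV. Endothelial-like cells held 583, 615, 591 and 589 CPM, with a UMI in 85.8% to 95% of cells. Pericyte-like cells held 23.5 [14.1 to 36.7], 47.8 [36.3 to 61.8], 34.9 [22.6 to 51.5] and 26.5 [12.1 to 50.4] CPM, with a UMI in 5.51% to 12.8% of cells. Free RNA can give part of these UMIs, and its share was not tested. No other compared class was that low: microglia-like cells held 240 to 291, smooth muscle-like cells 548 to 638, astrocyte-like cells 593 to 842, and choroid plexus-like cells 2501 and 2636 CPM. Ndufa4l2, a paralog of Ndufa4 that hypoxia is known to induce, is not a member by the rule and was looked up after these values were seen. It stood at 1689, 1503, 1726 and 1783 CPM in pericyte-like cells, with a UMI in 91.3% to 97.1% of them, against 1.03 to 3.83 CPM in endothelial-like cells.

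Smooth muscle-like cells held both sets, in amounts that differed by cluster. Their Cox4i2 level was 226, 166, 142 and 165 CPM over the class. The cluster led by Olfr558 and Rgs5 held 339 to 403 CPM of Cox4i2 and 773 to 856 CPM of Ndufa4l2 with 374 to 522 CPM of Ndufa4. The cluster led by Actg2 and Cnn1, genes of the contractile apparatus, held 17.6 to 52.1 CPM of Cox4i2, 9.20 to 33.5 CPM of Ndufa4l2 and 718 to 778 CPM of Ndufa4. The remaining cluster, 31.7% to 42.4% of the class, held both sets together, with 188 to 210 CPM of Cox4i2, 352 to 556 CPM of Ndufa4l2 and 390 to 552 CPM of Ndufa4. Comparing the cluster led by Olfr558 with that led by Actg2, in every library the first was the higher one for Cox4i2 and Ndufa4l2 and the lower one for Ndufa4, and both kept a nuclear share near that of the class, at 2.93% to 3.22% and 3.0% to 3.05%. Ndufa4l2 and Rgs5 are among the leading genes of the cluster led by Olfr558, so its Ndufa4l2 level is not an independent result. Like the members, Ndufa4l2 was kept out of the clustering. Within pericyte-like cells, the cluster led by Atp13a5 and Abcc9 held 873 to 1024 CPM of Cox4i2, and the cluster led by Ccl19 and Il6 held 213 to 414 CPM in the 3 libraries with at least 20 such cells, with 20.3 to 64.9 CPM of Ndufa4.

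**Figure D2:**
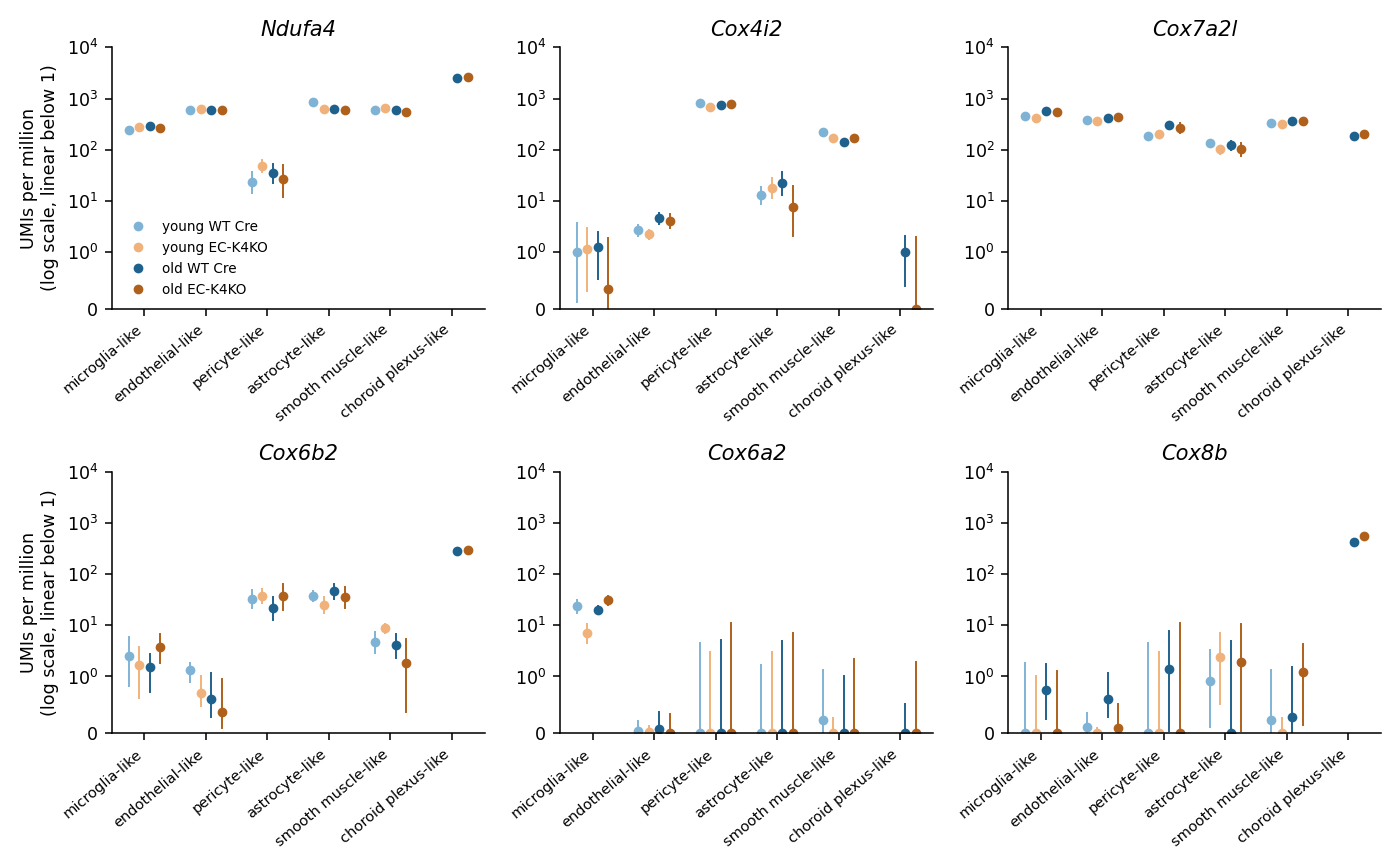
CPM (symmetric log axis, linear below 1) of 6 members in 6 cell classes, one point per library with its 95% Poisson interval. Ndufa4 drops to 23.5 to 47.8 in pericyte-like cells, where Cox4i2 reaches 675 to 812, while Cox6b2 and Cox8b are highest in choroid plexus-like cells and Cox6a2 in microglia-like cells.

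Other tissue forms of complex IV were highest outside the endothelium. Cox8b, a form of subunit 8 known from heart and skeletal muscle, held 423 and 557 CPM in choroid plexus-like cells of the old libraries, with a UMI in 84.7% and 82.8% of cells, against at most 0.609 CPM in endothelial-like cells, and it was among the leading genes of that cluster. Cox6b2, known from testis, held 288 and 295 CPM there, 22.3 to 38.3 CPM in pericyte-like and 25.4 to 46.2 CPM in astrocyte-like cells, and 0.375 to 1.32 CPM in endothelial-like cells. Choroid plexus-like cells also held the most Cox7a1, another muscle form, at 81.9 and 94.9 CPM, against 3.37 to 9.33 CPM in endothelial-like, 7.41 to 18.1 CPM in pericyte-like and 13 to 24.9 CPM in smooth muscle-like cells. Their median depth of 38037 to 40442 UMIs per cell exceeds that of every compared class, which raises the share of cells with a UMI but not CPM. Cox8c had 0 to 0.0399 CPM in endothelial-like cells and no UMI in the other 5 classes shown.

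Cox6a2, the muscle form of subunit 6A, was, among the 6 classes plotted, a microglia-like transcript, at 23.9 [17.6 to 31.8], 7.06 [4.57 to 10.4], 20.03 [16.7 to 23.8] and 30.7 [24.7 to 37.7] CPM. A UMI was seen in 6.46%, 3.48%, 6.2% and 8.36% of these cells, while pericyte-like, astrocyte-like and choroid plexus-like cells had none, smooth muscle-like cells had 1 UMI and endothelial-like cells had 1, 1, 1 and 0 UMIs. A count of 0 (3 UMIs as its limit) allows up to 2.47 to 8.84 CPM in pericyte-like, 1.39 to 5.74 in astrocyte-like and 0.427 to 1.57 in choroid plexus-like cells. The smaller class of border macrophage-like cells held 1.92, 1.76, 1.51 and 64.9 CPM, high in the library labelled old EC-K4KO only. The library labelled young EC-K4KO was lowest in both microglia-like clusters, at 9.26 and 6.35 CPM. Cox6a2 also stood among the leading genes of an unnamed cluster led by Cst7 and Spp1, with 9, 6, 106 and 162 cells. Cox7a2l, which helps complexes III and IV bind into supercomplexes, was one of the 2 members highest in microglia-like cells, at 453, 412, 559 and 552 CPM, a range that overlapped the 365 to 431 CPM of endothelial-like cells. Astrocyte-like cells held 134, 101, 121 and 101 CPM of it, below every other compared class, although the chain as a whole was high there.

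Promoter windows are shown for widely used and tissue forms, to set their base composition and motif letters side by side. Windows of 250 bases before the RefSeq start were available for 65 of the 84 nuclear symbols (70 windows, GRCm38.p6), and not for Cox4i2, Cox4i1 or Cox6a2. The windows below run 5′ to 3′ on the gene's strand, minus in all 6, and capitals mark matches to the letters GCGCANGCG (a core of the NRF1 motif), CCGGAAG (an ETS core, as bound by GABP) or AAGATGGCG (a YY1 core) on either strand. NRF1 and GABP are known activators of respiratory chain genes. The windows are chr6:11907451-11907700 for Ndufa4, chr5:115348959-115349208 for Cox6a1, chr7:30626115-30626364 for Cox6b1, chr7:4753095-4753344 for Cox6b2, chr19:7217617-7217866 for Cox8a and chr7:140900447-140900696 for Cox8b.
Ndufa4: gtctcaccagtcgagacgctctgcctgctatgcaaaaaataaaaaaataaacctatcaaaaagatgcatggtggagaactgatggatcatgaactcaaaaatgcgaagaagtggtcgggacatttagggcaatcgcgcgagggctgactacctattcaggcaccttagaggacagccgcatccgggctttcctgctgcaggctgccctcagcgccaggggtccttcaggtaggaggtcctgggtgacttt
Cox6a1: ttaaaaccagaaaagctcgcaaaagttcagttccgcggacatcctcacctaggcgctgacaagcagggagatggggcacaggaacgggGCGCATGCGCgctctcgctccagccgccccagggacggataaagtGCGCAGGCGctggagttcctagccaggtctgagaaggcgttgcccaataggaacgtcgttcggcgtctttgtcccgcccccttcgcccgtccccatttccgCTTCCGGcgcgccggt
Cox6b1: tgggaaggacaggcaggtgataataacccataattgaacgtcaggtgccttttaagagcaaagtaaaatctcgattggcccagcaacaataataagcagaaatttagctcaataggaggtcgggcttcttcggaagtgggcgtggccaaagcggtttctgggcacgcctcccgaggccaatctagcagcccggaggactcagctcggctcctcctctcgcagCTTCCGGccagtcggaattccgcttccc
Cox6b2: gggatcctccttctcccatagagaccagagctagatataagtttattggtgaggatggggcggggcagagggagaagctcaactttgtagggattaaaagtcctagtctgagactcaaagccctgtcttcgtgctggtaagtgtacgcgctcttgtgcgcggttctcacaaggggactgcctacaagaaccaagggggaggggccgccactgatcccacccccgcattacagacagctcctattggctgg
Cox8a: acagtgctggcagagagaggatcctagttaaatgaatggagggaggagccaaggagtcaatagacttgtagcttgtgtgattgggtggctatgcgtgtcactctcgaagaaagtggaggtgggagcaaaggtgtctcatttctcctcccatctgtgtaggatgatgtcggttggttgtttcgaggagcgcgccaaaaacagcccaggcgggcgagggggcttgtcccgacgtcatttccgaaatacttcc
Cox8b: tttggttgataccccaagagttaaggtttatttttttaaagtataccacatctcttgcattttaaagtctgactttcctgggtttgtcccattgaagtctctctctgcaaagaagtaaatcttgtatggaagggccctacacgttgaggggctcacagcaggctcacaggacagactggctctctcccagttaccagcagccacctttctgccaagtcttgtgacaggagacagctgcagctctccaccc

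The windows of tissue forms held fewer CpG dinucleotides. Cox6b2, Cox7a1 and Cox8b had 8, 4 and 1, against 26 in Cox6a1, 14 in Cox6b1, 14 in Cox7a2, 13 in Cox7a2l, 11 in Cox8a and 10 in Ndufa4. The median was 14 over member windows and 6 over all 32851 windows. Cox6a1 held the NRF1 letters at 162 and 117 bases and the ETS letters at 16 bases before the start, and Cox6b1 held the ETS letters at 28 bases. Over all nuclear members, 18.6% of windows held the NRF1 letters (5.16% of all windows), 15.7% the ETS letters (6.91%) and 1.43% the YY1 letters (0.606%). The windows with the NRF1 letters belonged to 12 symbols, 6 of complex I, 1 of complex IV and 5 of complex V. A match describes the letters only.

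In endothelial-like cells, the nuclear chain differed little between the libraries labelled EC-K4KO and WT Cre. Of the 85 nuclear members, 73 reached a mean of 10 CPM over the 4 libraries and 12 did not (Cox4i2, Cox6a2, Cox6b2, Cox6c2, Cox7a1, Cox7b2, Cox8b, Cox8c, Ndufa11b, Ndufb4c, Ndufs6b and the second Atp5o). In the young pair the 73 had a median log2 ratio of -0.04, with 26 above and 47 below 0 and a range of -0.28 to 0.18, beside a median of -0.04 over all 8427 genes tested. Of all genes 60.4% were below 0 in this pair. In the old pair the median was -0.05, with 16 above and 57 below 0 and a range of -0.27 to 0.44, beside -0.02 over all genes, 55.0% of which were below 0. Against genes of 100 CPM and more the members lay 0.04 below in the young and 0.03 below in the old pair, and those of complex I 0.08 and 0.04 below. None of the 73 was past the fold in either genotype pair, where 1.78% of all genes tested were higher and 1.72% lower in the young pair, and 2.12% higher and 1.82% lower in the old pair. None was past it in the same direction in both pairs, which 0.688% of genes were for higher and 0.641% for lower. The median in the young pair turned to 0.01 with TMM factors and 0.02 with DESeq2 size factors, while that of the old pair stayed at -0.05 with both.

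By complex, the lowest median in the young pair was that of complex I, which oxidizes NADH and starts the chain. Its 37 tested subunits had medians of -0.08 in the young and -0.05 in the old pair, with 31 of 37 below 0 in each. With TMM factors the young median was -0.03 and 23 of 37 were below 0, and with DESeq2 size factors it was -0.02 with the same tally. In the young pair 28 of the 37 also lay below the median of all genes, and in the old pair 27 of 37. Complex III had medians of 0.00 and -0.06, complex IV of 0.00 and -0.03, and complex V of 0.03 and -0.02. Ndufa13 (also known as GRIM19), a structural subunit of complex I, was lower in the library labelled EC-K4KO at both ages, at 270, 223, 235 and 208 CPM, with log2 ratios of -0.28 [-0.32 to -0.23] and -0.18 [-0.25 to -0.10]. Ndufs1, the largest iron-sulfur subunit of complex I, went the same way at -0.17 and -0.27. Of the other members with the highest or lowest genotype ratios, 4 had the same sign in both pairs and 4 did not. Those with the same sign were Ndufa6, a complex I subunit (-0.18 and -0.09), Cox5a and Cox5b of complex IV (0.09 and 0.19, and 0.05 and 0.44) and Atp5mpl of ATP synthase (0.12 and 0.03). Uqcrc1, a core protein of complex III, was at 0.16 in the young and -0.10 in the old pair, Atp5g2, one of several genes for the c-ring of ATP synthase, at 0.18 and -0.15, Ndufb5 at -0.07 and 0.07, and Cox7c at 0.03 and -0.18. Ndufa13, Ndufa6 and Ndufb5 were the 3 of these 10 members that kept the sign of both ratios in 10 of 10 settings. Over the 73 members, 47 had the same sign in both genotype pairs (64.4%, against 60.05% of all genes), with a Pearson r of 0.31 across genes (0.36 over all genes), which share library depth and are not replicates.

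With age, the nuclear members lay close to 0 and, over all kept endothelial-like cells, above the median of all genes in both pairs. The 73 had a median log2 ratio of -0.08 in old over young WT Cre (18 above and 55 below 0, range -0.46 to 0.23) and -0.10 in old over young EC-K4KO (15 above and 58 below, range -0.57 to 0.24). All genes had medians of -0.18 and -0.15 in the same pairs, with 74.2% and 71.2% of them below 0. The members thus lay 0.10 and 0.05 above them, while against genes of 100 CPM and more they lay 0.02 and 0.04 below. In cells of 3000 to 8000 UMIs the member medians were -0.13 and -0.16, beside -0.16 and -0.13 over all genes. There the members lay 0.03 above all genes in WT Cre and 0.03 below them in EC-K4KO. The direction depends on the scaling: TMM factors moved every ratio up by 0.14 and 0.09 and gave member medians of 0.06 and -0.01, and DESeq2 size factors moved them up by 0.17 and 0.12 and gave 0.09 and 0.02. The cell mix moved with age as well. The largest endothelial-like cluster, led by Hmcn1 and Car4, held 47.3%, 36.2%, 27.7% and 26.1% of the class and had age medians of 0.01 and -0.02 by itself. The cluster led by Adm and Ankrd37 held 14.6%, 20.5%, 24.1% and 25.7%.

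No nuclear member was past the fold in both age pairs, against 3.64% of genes higher and 5.13% lower. With TMM factors there was also none, against 4.92% higher and 2.06% lower, and with DESeq2 size factors none, against 5.41% and 1.70%, so the balance of all genes turns with the scaling. In WT Cre alone none was past it, where 5.15% of genes were higher and 11% lower. In EC-K4KO alone 1 of 73 was, Ndufs1, where 5.48% of genes were higher and 10.1% lower. At a log2 ratio of 0.25, 6 members were lower in both age pairs (Ndufb3, Ndufs1, Ndufa8, Atp5k, Ndufa3 and Ndufa1), against 26.1% of all genes. The pairs share no library, and 58 of 73 members had the same sign in both (79.5%, against 84.2% of all genes), with a Pearson r of 0.78 across genes (0.77 over all genes).

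**Figure D3:**
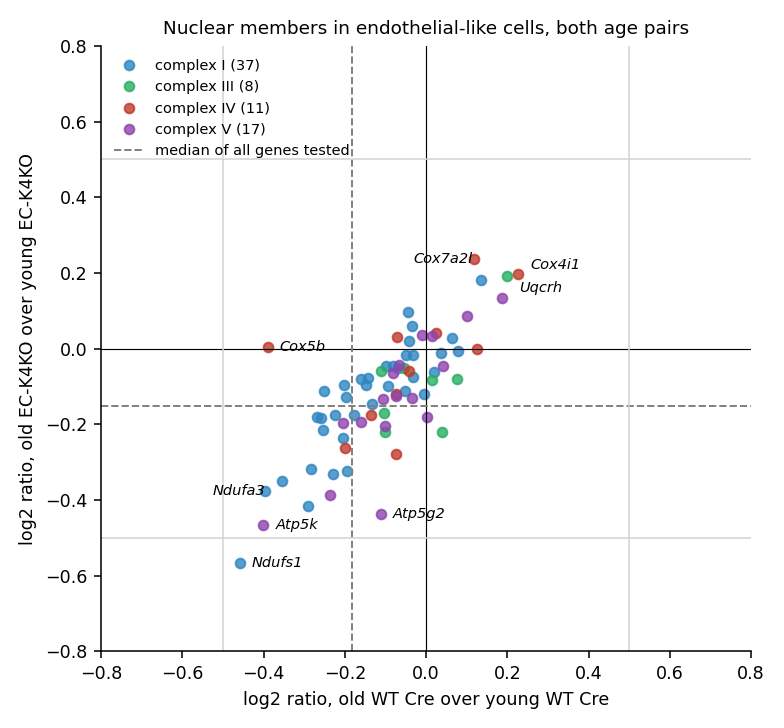
Log2 ratio of old over young for the 73 tested nuclear members in endothelial-like cells, WT Cre on the x axis and EC-K4KO on the y axis, coloured by complex. Dashed lines mark the medians of all genes tested (-0.18 and -0.15) and grey lines the fold of 0.5, which Ndufs1 alone passes, on the y axis only and not with TMM factors.

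Among single members, Ndufs1 (chromosome 1, 63143596 to 63176833, minus strand) had the lowest age ratios. It stood at 39.0, 34.8, 28.4 and 23.4 CPM, lower in both old libraries than in both young ones, with log2 ratios of -0.46 [-0.63 to -0.29] and -0.57 [-0.77 to -0.38]. TMM factors gave -0.32 and -0.48, so it was then past the fold in neither pair. Atp5k, the e subunit of ATP synthase that helps hold its dimers, followed at 214, 224, 162 and 162 CPM (-0.40 and -0.47), and Ndufa3, a small complex I subunit, at 188, 184, 143 and 142 CPM (-0.40 and -0.38). In the opposite direction, Cox4i1 stood at 636, 634, 745 and 727 CPM (0.23 [0.19 to 0.26] and 0.20 [0.16 to 0.23]), and Uqcrh, the hinge protein of complex III, at 487, 483, 559 and 552 CPM (0.20 and 0.19). Both were higher in the old library in 8 of the 8 endothelial-like clusters that had at least 20 cells in both libraries of a pair. The class has 9 clusters, and the one left out for few cells, here and in the counts below, differs between the WT Cre and EC-K4KO pairs. Atp5g1, a c-ring gene, was at 0.19 and 0.13, and Cox7a2l at 0.12 and 0.24.

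By complex, the age medians were -0.14 and -0.10 for complex I (32 of 37 below 0 in each pair), -0.02 and -0.08 for complex III, -0.07 and 0.00 for complex IV, and -0.08 and -0.13 for complex V. Of all genes 74.2% and 71.2% were below 0, and 22 and 24 of the 37 complex I members lay above the median of all genes. Complex I turned to 0.03 and 0.02 with DESeq2 size factors. Within complex V the c-ring genes spread widely, since Atp5g1 was higher, Atp5g3 lower (-0.24 and -0.39) and Atp5g2 at -0.11 and -0.44, the first of which turns positive with the TMM shift of 0.14. Of the 8 nuclear members that held the most UMIs in their complex, 2 in each, Cox4i1 and Uqcrh were above 0 in both pairs, as given above, and the other 6 lay between -0.20 and 0.02: Ndufa4 (0.02 and -0.06), Uqcrb (0.01 and -0.08), Cox6c (-0.07 and -0.12), Atp5j (-0.08 and -0.13), Atp5e (-0.10 and -0.20) and Ndufa7 (-0.20 and -0.13).

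The mitochondrial members come from a few long transcripts that are cut into single messengers, so unequal change among them was examined gene by gene. Their summed UMIs gave log2 ratios of -0.10 (young genotype pair), -0.04 (old genotype pair), 0.04 (age in WT Cre) and 0.09 (age in EC-K4KO). These sums were sensitive to the cells kept: without the mitochondrial limit the age ratios were 0.47 and 0.51 and the genotype ratios -0.02 and 0.02. In cells of 3000 to 8000 UMIs the age ratio in EC-K4KO turned to -0.07 and the young genotype ratio to 0.04, and the age ratio in WT Cre was at 0.00 there and with a stricter filter on cells (1000 genes, 2000 UMIs and at most 5% mitochondrial UMIs). Barcodes above the limit were 3.31%, 5.15%, 6.37% and 6.50% of the class. Among the 12 members tested, mt-Cytb, the mitochondrial subunit of complex III, was the most abundant at 6312, 5774, 6916 and 6787 CPM (age ratios of 0.13 and 0.23). mt-Nd4 (0.06 and 0.27), mt-Nd1 (0.24 and 0.12), mt-Nd2 (-0.15 and 0.07) and mt-Atp6 (-0.04 and -0.20) each held 2656 to 3718 CPM. mt-Co1, the catalytic subunit of complex IV, was at 0.02 and 0.12, mt-Co2 at 0.05 and -0.18, mt-Nd5 at -0.16 and 0.07, and mt-Nd6, the one member encoded on the opposite strand, at 0.17 and 0.17. mt-Nd4l held 6.50 to 9.54 CPM and was below the limit.

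mt-Atp8 was the one member past the fold in both age pairs, 1 of 12 tested mitochondrial members (8.33%) against 5.13% of all genes that were lower in both (2.06% with TMM and 1.70% with DESeq2 size factors, with mt-Atp8 past the fold in each). It encodes a small subunit of the membrane part of ATP synthase and stood at 149, 120, 76.1 and 66.7 CPM, with age ratios of -0.97 [-1.06 to -0.87] and -0.84 [-0.96 to -0.73] and both old libraries below both young ones. It was lower in 8 of 8 endothelial-like clusters with enough cells in the WT Cre pair and in 7 of 8 in the EC-K4KO pair. Its gene (mitochondrial positions 7766 to 7969, plus strand) shares 43 bases with mt-Atp6, which lies on the same transcript and showed age ratios of -0.04 and -0.20, so the division of their UMIs between both genes could not be checked. mt-Co3, which follows mt-Atp6, was at -0.16 and -0.39, with 1041, 1002, 935 and 764 CPM.

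mt-Nd3, a core subunit of complex I, separated the libraries without following age or genotype. It stood at 166, 103, 77.8 and 110 CPM, with log2 ratios of -0.69 in the young and 0.50 in the old genotype pair, and of -1.09 and 0.09 with age. Each of these 4 directions held in 8 of 8 endothelial-like clusters with enough cells, the one left out differing between comparisons. Over the alternatives, the age ratio in EC-K4KO kept its sign in 9 of 10 settings (lowest -0.10). The age ratio in WT Cre ran from -1.15 to -0.49, and both genotype ratios kept their sign in 10 of 10.

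**Figure D4:**
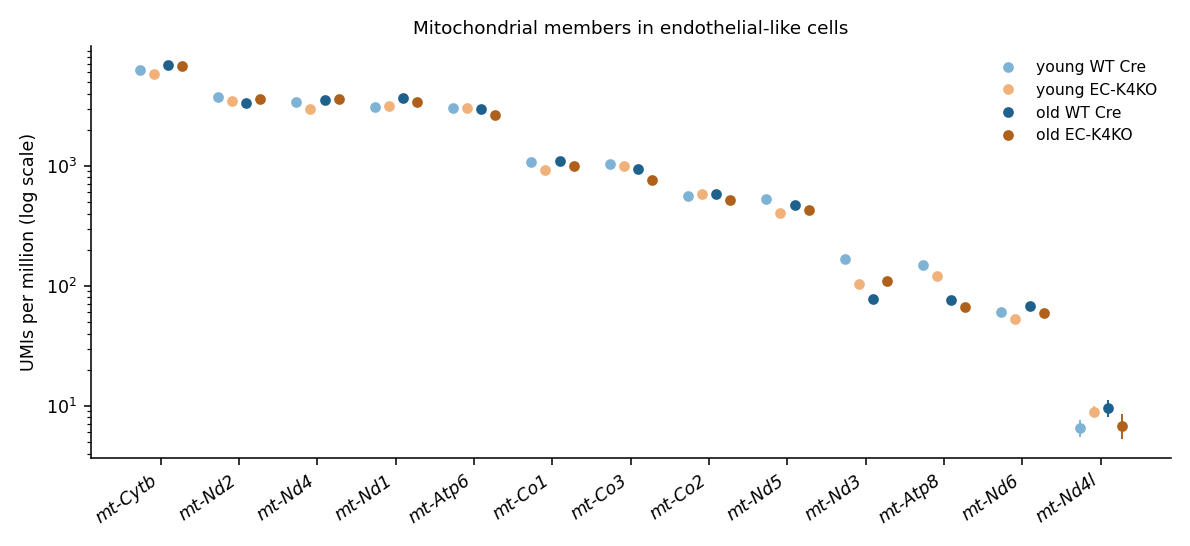
CPM (log axis) of the 13 mitochondrial members in endothelial-like cells, one point per library with its 95% Poisson interval, which is mostly smaller than the point. mt-Atp8 is lower in both old libraries, mt-Nd3 is highest in young WT Cre, and mt-Nd4l lies at 6.50 to 9.54.

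A few members kept one library apart in every class. Among 5623 genes with at least 10 CPM in all 5 classes, 0.765% were lowest in the old WT Cre library in all 5. Of the 73 nuclear members at that level 1 was, Cox5b (1.37%). Cox5b, a zinc-binding subunit of complex IV, stood at 293, 303, 223 and 304 CPM in endothelial-like, 448, 465, 328 and 444 in smooth muscle-like, 157, 181, 140 and 188 in microglia-like, 282, 349, 254 and 380 in pericyte-like and 541, 447, 368 and 493 in astrocyte-like cells. Its log2 ratio of 0.44 was the highest among nuclear members in the old genotype pair, and its age ratios were -0.39 in WT Cre and 0.00 in EC-K4KO, so a single library sets both values. Cox6a1 and Ndufs4, 2.74% of the 73, were lowest in the library labelled old EC-K4KO in all 5 classes (1.28% of genes were), and so was mt-Co3. None of the 73 was lowest in a young library or highest in any library in all 5 classes, where 0.213% to 1.56% of genes were. mt-Nd3 and mt-Atp8 were highest in young WT Cre in all 5 (1.56% of genes were). These 6 members were picked out after their values were seen. With 1 library per group, a library and its group cannot be told apart.

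**Figure D5:**
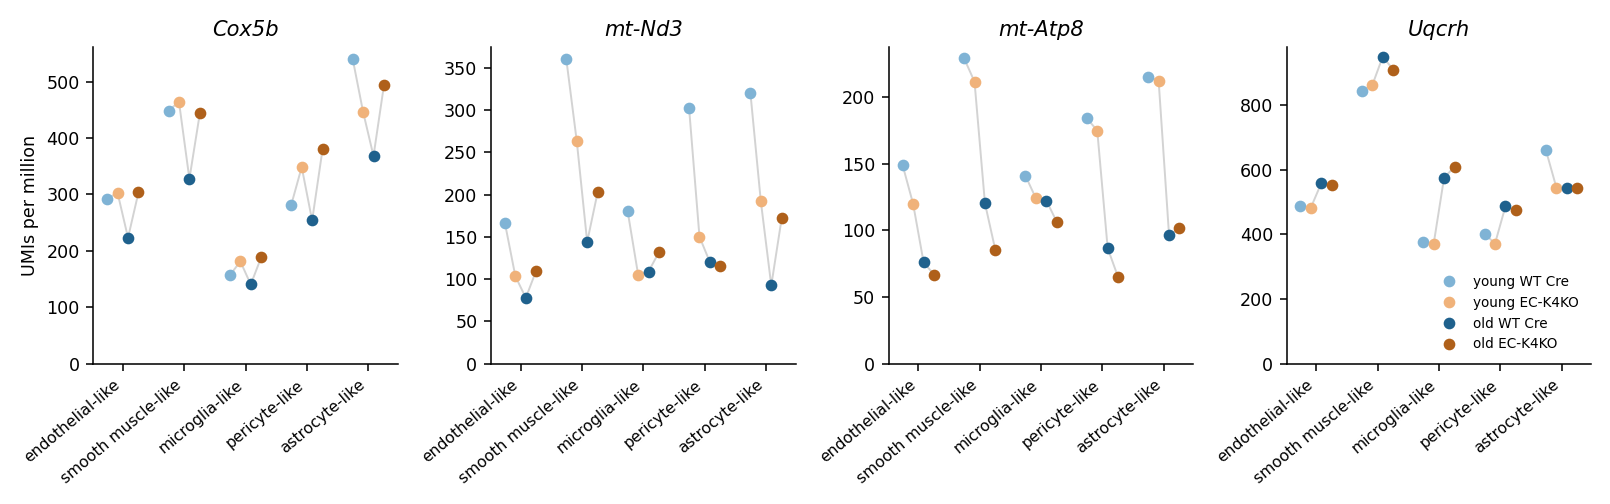
CPM of Cox5b, mt-Nd3, mt-Atp8 and Uqcrh in 5 cell classes, one point per library, points of a class joined by a grey line. Cox5b dips in old WT Cre and mt-Nd3 peaks in young WT Cre in every class, mt-Atp8 is lower in the old libraries, least so in microglia-like cells, and Uqcrh is higher in them except in astrocyte-like cells.

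Outside the endothelium, the comparison of both age pairs gave few members past the fold. In smooth muscle-like cells 1 of 75 nuclear members was higher in both (Cox7a1, at 14.3, 13, 24.1 and 24.9 CPM) and none lower, against 2.60% and 2.42% of genes. In the genotype pairs none was higher or lower in both, against 0.306% and 0.650%. In pericyte-like cells none of 76 was past the fold in both age pairs (3.13% of genes higher and 7.79% lower) or in both genotype pairs (2.24% and 2.61%). mt-Atp8 was lower in both age pairs in smooth muscle-like (229, 211, 120 and 85.1 CPM), pericyte-like (184, 175, 86.5 and 64.9 CPM) and astrocyte-like cells (215, 212, 96.3 and 101 CPM). In microglia-like cells it was at 141, 124, 122 and 106 CPM and not past the fold. mt-Co3 was lower past the fold in both age pairs in smooth muscle-like cells only among the 5 classes, at 2743, 3142, 1902 and 1789 CPM.

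In microglia-like cells the nuclear members, those of complex I apart, had higher medians in the old libraries while most genes were lower. The unnamed cluster led by Cst7 and Spp1 (9, 6, 106 and 162 cells) is not part of this class. At resolution 0.5 the nuclear share of microglia-like cells was 1.26%, 1.25%, 1.42% and 1.47%. The nuclear members had age medians of 0.08 and 0.05 beside -0.26 and -0.25 over all genes, and the order of complexes was uneven, with 0.19 and 0.18 for complex III, 0.20 and 0.21 for complex IV, 0.09 and 0.07 for complex V, and -0.01 and -0.03 for complex I. The 82 ribosomal protein genes were higher still, with medians of 0.42 and 0.40. Uqcrh was the 1 of 74 members past the fold in both pairs (377, 371, 576 and 609 CPM), against 3.65% of genes higher and 16.6% lower. Different clusters held most of the class by age: the cluster led by P2ry12 and Gpr34 held 75.4% and 81.5% of young and 31.0% and 36.0% of old microglia-like cells, and the cluster led by Tnf and Il1a held the rest. Uqcrh was higher in the old libraries within each, at 336, 354, 540 and 583 CPM in the first and 472, 423, 588 and 620 CPM in the second. The nuclear share was likewise higher within each, at 1.26%, 1.23%, 1.43% and 1.40% in the first. The mitochondrial share differed mainly between clusters, at 1.78%, 1.71%, 1.86% and 1.86% in the first and 2.23%, 2.37%, 2.64% and 2.46% in the second. In the genotype pairs none of 74 was past the fold in both, against 0.370% of genes higher and 0.562% lower.

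In astrocyte-like cells the young WT Cre library held the highest nuclear share. It was 3.24% there and 2.60% to 2.70% in the other 3, so the young genotype median was -0.28 (74 of 76 members below 0) and the old one -0.06. In cells of 3000 to 8000 UMIs the shares were 2.81%, 2.37%, 2.63% and 2.63%, with young WT Cre closer to the old libraries. With the stricter filter they were 2.83%, 2.41%, 2.61% and 2.52%. The medians and counts given here are those of all kept cells, whose median UMIs were 7641, 7173, 4350 and 3678. In the young genotype pair 11 of the 76 were lower past the fold and none was higher, where 7.72% of genes were lower and 16.2% higher. The age medians were -0.24 in WT Cre and 0.03 in EC-K4KO. Complex IV gave -0.39 in the young genotype pair and the ribosomal protein genes -0.27, while all genes had a median of 0.09. No member was past the fold in both age pairs (3.44% of genes higher, 2.49% lower), and in both genotype pairs none was higher (3.28% of genes) and 2 were lower (1.12% of genes). These were Cox6a1 (371, 246, 313 and 207 CPM) and Cox7a1 (17.1, 10.7, 11.9 and 3.83 CPM, from 37, 13, 9 and 2 UMIs). This class held 127 to 266 cells per library and lost the largest share of its barcodes to the mitochondrial limit among the 5 classes.

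Genes around the chain were taken from lists of related pathways and read in the same endothelial-like sums, beside the 3.64% of all genes higher and 5.13% lower in both age pairs. Complex II, which feeds electrons from succinate and is wholly nuclear, had 1 of 4 genes lower in both age pairs, Sdhd (72.1, 68.7, 46.2 and 38.2 CPM). Neither cytochrome c nor cytochrome c1 (Cycs and Cyc1) was past the fold in both, nor was any of 17 citric acid cycle genes, 7 mitochondrial carriers and pores or 12 tested genes of mitochondrial genome expression. Of 30 tested assembly factors 1 was lower, Acad9 (16.2, 14.5, 10.8 and 7.22 CPM). Of 73 tested mitochondrial ribosomal proteins, 1 was higher (Mrps6, at 0.50 and 0.66) and 3 were lower (Mrpl27, Mrpl50 and Mrpl36, at -0.50 to -0.69). Antioxidant genes of the mitochondrion had 2 of 6 lower, Gpx4 (114, 85.2, 31.3 and 33.9 CPM), a peroxidase for lipid peroxides, and Prdx3 (-0.59 and -0.63). Most of these calls depend on the scaling. With TMM factors Acad9, Mrpl27, Mrpl50, Mrpl36 and Prdx3 were no longer past the fold in both pairs, while Ttc19, an assembly factor, and Polg2, of mitochondrial genome expression, were then higher in both. DESeq2 size factors gave the same changes and also took away Sdhd, so Mrps6 and Gpx4 were the calls left among those named here with every scaling.

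Glycolysis and hypoxia-linked genes were counted in the same way. Ldha, which turns pyruvate into lactate, was 1 of 15 tested glycolysis genes past the fold in both age pairs (366, 340, 549 and 491 CPM, at 0.59 and 0.53), or 6.67% against 3.64% of all genes. Of the hypoxia-linked list 3 of 5 tested genes were higher in both: Hilpda, a lipid droplet protein (36.9, 49.3, 141 and 158 CPM), Ankrd37 (129, 93.7, 332 and 251 CPM) and Pfkfb3, an activator of glycolysis (10.6, 20.3, 26.3 and 52.9 CPM). With TMM or DESeq2 size factors Pfkp of the glycolysis list, and Bnip3 and Pdk1 of the hypoxia-linked list, were higher in both as well. Ankrd37 is a leading gene of the endothelial-like cluster whose share was larger in the old libraries, given above, and the part of this in the values was not tested. Pfkfb3 was also higher in both genotype pairs, at 0.93 and 1.01. By comparison 1 of 82 ribosomal protein genes was past the fold in both age pairs, Rpl10 (lower). Many of these genes and of the chain's members have processed pseudogene copies, and where reads could be split between near-identical copies the counts are uncertain. Markers of vessel type moved as well, with 4 of 7 capillary genes lower (3 with the other scalings), 4 of 7 venous and 3 of 8 arterial genes higher in both age pairs, and their part in the values above was not tested.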

How the data were processed

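Mouse brain cells were profiled by droplet single-cell RNA-seq, with 1 library per group. The deposited values are raw UMI counts of genes in cell barcodes. The authors used Cell Ranger, with version 6.0.2 in the headers. The submitters' processing notes name mm10/GRCm38 and Seurat, and barcodes had already been limited to called cells. The chemistry (which transcript end is read) and any pooling of mice are not given in the sources used here. Of the 55487 gene IDs, 55094 match GENCODE M21 with the same version.

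Barcodes were kept from 500 genes and 1000 UMIs upward if mitochondrial genes took no more than 10% of UMIs. Doublets were scored by library with scanpy 1.11.5 and the top 0.8% per 1000 cells removed (175 and 385 in young WT Cre and EC-K4KO, 270 and 147 in old WT Cre and EC-K4KO), since the automatic threshold marked few (50, 145, 122 and 7 in the same order). Kept cells numbered 4496, 6555, 5540 and 4146. They were clustered with leidenalg 0.10.2 at resolution 1 on 2000 variable genes without the members, 30 principal components and 20 neighbours. The other mt- genes and the related gene lists, except those of vessel type, were left out of the variable genes as well. Clusters were named from marker lists, by a rule that was set after the clusters had been seen, and 19135 cells received a name. UMIs were summed by library and class and scaled to 1000000 UMIs (CPM). Ratios added 0.5 UMIs, their intervals are exact conditional binomial, those of levels are Poisson and those of shares of cells are Clopper-Pearson, all at 95% and for counting error only. The ratio computation was tested on simulated data. A gene was tested at a mean of at least 10 CPM over the 4 sums and called at a log2 ratio of 0.5 or more.

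Samples were grouped by the genotype and age labels. The 4 comparisons were genotype at each age and age in each genotype, and those of one kind share no library. Members named in the text are those with the most UMIs in each complex, in each comparison the 3 members at either end of the ratios, all mitochondrial members, the complex IV tissue forms with Ndufa4, and the genes of related lists past the fold in both pairs. Cox5b, Cox6a1, Ndufs4, mt-Nd3, mt-Atp8 and mt-Co3 as library patterns, members called in other classes, highest or lowest by class, and Ndufa4l2 were chosen after their values were seen. The members and lists were chosen with earlier results of these data known. Alternatives were TMM factors (edgeR 4.0.16) and DESeq2 1.42.0 size factors, other cell filters, cell weights, depth bands, resolutions, level filters and fold limits.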

Additional observations from a re-analysis of the deposited data

Results flagged for a closer look

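The genotype ratio of mt-Nd3 in endothelial-like cells differed by age, at -0.69 [-0.75 to -0.62] among young and 0.50 [0.38 to 0.62] among old mice. It was picked out because the single library of each group moved in opposite directions, a difference of -1.19 on the log2 scale. The difference was not tested, since each group has 1 library.

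Ndufb1-ps, which the symbol rule leaves out for its -ps ending, was listed at 228, 251, 177 and 167 CPM in endothelial-like cells (WT Cre and EC-K4KO, first young and then old), a mean of 206 CPM. It was picked out as signal outside the members. It entered no sum of the members.

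Barcodes above the mitochondrial limit that lay nearest to endothelial-like cells made up 5.15% of the class in young EC-K4KO and, among old mice, 6.37% in WT Cre and 6.50% in EC-K4KO, above the 3.31% of young WT Cre. In these barcodes the nuclear members held 1.26%, 1.19%, 0.932% and 0.727% of UMIs, below the kept cells of every library, while the mitochondrial members held 19.3%, 21.1%, 31.0% and 34.2%.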

How the results depend on the processing

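With 1 library per group, no library could be left out. No paired analysis was possible because the groups share only replicate number 1. Of 128 values of the medians, sums and counts under alternatives, 87 stayed within a set limit and 41 moved further. For a sum the limit was its counting interval, and for a nuclear median that of the 1 member at the median, which is not an interval of the median. A count had to be equal or within 1.5 times. No main median or sum reached a log2 ratio of 0.5, so no called value could change sign, and several of the values below did change sign. The young genotype sum of the mitochondrial members (-0.10) became -0.0498 with TMM factors, -0.0450 with DESeq2 size factors, -0.107 without mitochondrial genes in the total, -0.0949 with the stricter filter, -0.0201 without the mitochondrial limit, -0.0421 with equal cell weights, 0.0365 in cells of 3000 to 8000 UMIs, -0.108 at resolution 0.5, -0.0256 in the largest endothelial-like cluster and -0.106 without the Ackr1-led cluster. The old genotype sum (-0.04) became -0.0582, 0.0186, -0.0515 and -0.0342 with the stricter filter, no limit, equal weights and the depth band, and -0.0600 and -0.0515 with the cluster choices. The age sum in WT Cre (0.04) became 0.173, 0.206, -0.00123, 0.474, 0.0826, 0.000743 and 0.0271 with TMM, size factors, the stricter filter, no limit, equal weights, the depth band and resolution 0.5, and 0.154 and 0.0236 with the cluster choices. That in EC-K4KO (0.09) became 0.18, 0.213, 0.0355, 0.512, 0.0732 and -0.0700 with the first 6 of these, and 0.119 and 0.0777 with the cluster choices. The age median of the nuclear members became 0.0568 and 0.0901 in WT Cre and -0.0110 and 0.0215 in EC-K4KO with TMM and size factors, -0.132 in WT Cre in the depth band, and 0.0136 and -0.0168 in the largest cluster. The count lower in both age pairs was 6 at a log2 ratio of 0.25. Why each value moved was not tested. The cluster choices and the other scalings of the related lists were added after the data were seen. Of 152 ratios of named members, 90 kept their sign in all 10 settings, and of the 32 at 0.2 or more in size 31 did, mt-Atp6 with age in EC-K4KO being the exception. The order of classes by nuclear share ran smooth muscle-like, astrocyte-like, pericyte-like, endothelial-like, microglia-like in 22 of 28 library and setting combinations and had astrocyte-like cells first in the other 6.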

Other observations

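Cells of other classes, too few for a comparison between groups, carried tissue forms as well. Fibroblast-like cells (25 to 45 per library) held 84.6, 26.5, 21.9 and 16.4 CPM of Cox8b and 112, 85.8, 159 and 65.5 CPM of Cox6b2 (WT Cre and EC-K4KO, first young and then old). Neuron-like cells held 0 to 12.9 CPM of Cox6a2 in the 3 libraries with at least 20 of them.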
